A study of Mus musculus with 8 samples.

Results

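Distal regions that were open in 3 populations of mouse medullary thymic epithelial cells (mTEC) and at least 3-fold less open in the fourth, mTEC-IV, were examined by ATAC-seq, a transposase-based assay that counts cuts in open DNA. The regions are merged peaks lying over 1000 bp and up to 100000 bp from the nearest annotated transcription start site (TSS), outside annotated repeats and CpG islands. Each library's tags in merged peaks were scaled to sum to 1000000, and these scaled tags are the unit of every level given. A peak became a member when its mean was at least 12 scaled tags in the lowest of mTEC-I, mTEC-II and mTEC-III, and when its mTEC-IV mean was at least 3-fold below that lowest mean. This gave 631 members among 74090 merged peaks. They were drawn from 39199 distal peaks, of which 4925 reached the level of 12 scaled tags in all 3 other populations. The members were chosen by these measured values, so the low mTEC-IV level at them is a description and carries no test.

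All cells were sorted from enzyme-digested thymus of C57BL/6 mice as CD45 negative and Epcam positive, and each population had 2 libraries. The mTEC-IV gate took L1cam positive cells that were Itgb4 negative and MHCII low. Ly6D positive cells formed mTEC-III, MHCII high cells mTEC-II, and Itgb4 positive MHCII low cells mTEC-I. The labels state neither age nor genotype, nor do they tie replicates to separate animals; the spread behind each p-value may be technical. Coordinates of peaks are of build mm9. The sort is an enrichment, and fewer cells with a site open cannot be told apart from less opening of that site per cell.

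Medullary thymic epithelial cells display tissue antigens to developing T cells, which are deleted or diverted when they bind them. Precursors with low MHC class II mature under RANK and CD40 signals, relayed by TRAF adaptors and NF-kB, into MHC class II high cells that express Aire, and some later form cornified structures. A separate branch resembles tuft cells, the chemosensory cells of mucosa, and depends on the factor Pou2f3. Distal open regions are often enhancers, which bind transcription factors and act on genes at a distance.

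The sort labels were checked against fixed marker genes, using peaks within 10000 bp of their TSS. Peaks near 29 tuft genes summed to 1247 and 1221 scaled tags in the mTEC-IV libraries and to between 458 and 544 in the other 6. Trpm5, a tuft cell channel, had 18.8 and 23.04 scaled tags in mTEC-IV and at most 4.16 elsewhere. Among the genes of the gates, L1cam had 7.35 and 8.14 in mTEC-IV and at most 2.31 elsewhere. Itgb4 had 62.1 and 49.8 in the Itgb4 positive mTEC-I, above all other libraries though by little. It had 43.2 and 41.7 in the Itgb4 negative mTEC-IV and 28.5 to 48.5 in mTEC-II and mTEC-III. Ly6d did not separate the sorts, with 36.96 and 46.6 in the Ly6D positive mTEC-III and 17.9 to 37.5 elsewhere. Ptprc (CD45), Cd3e and Pax5 had no merged peak in that window. Lck, a T cell kinase, had 18.8 and 15.6 scaled tags in mTEC-IV and between 0 and 6.93 in the other libraries, and Cd79a of the B cell receptor had 17.9 and 16.3 against 0 to 4.86. The 7 thymocyte genes with a peak there summed to 118 and 130 in mTEC-IV, within the range of 92.4 to 133 elsewhere, and the 6 B cell genes to 105 and 114, above the range of 62.4 to 86.9. The 7 endothelial genes with a peak there also stood above the other libraries, at 143 and 156 in mTEC-IV and 90.9 to 113 elsewhere. Whether other cells in the gate bear on the members was not tested. Tags in merged peaks were 18.1% and 14.2% of all tags in mTEC-IV, 8.44% and 11% in mTEC-III and between 15.3% and 19.7% in mTEC-I and mTEC-II. At the level threshold of 12 scaled tags, a peak held between 10.4 read ends in the shallowest library and 40.6 in the deepest.

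The nearest genes of the members include receptors and regulators of T cell tolerance, and 6 of their promoters are shown so that the letters next to these genes can be read beside the accessibility values that follow. The sequences are RefSeq promoters of build GRCm38.p6, from 250 bases before the start to the start, on the gene's strand. Of 587 member genes, 414 had an entry in that table. Capitals mark matches, on either strand, to TGANTCA (AP-1), 2 copies of GAAA spaced 2 bases apart (IRF), GGGCGG (GC box) or the NF-kB consensus. The first 2 genes had a promoter peak that was lower in mTEC-IV. The other 4 belong to the lists of Aire-stage, NF-kB, TNF superfamily and interferon genes, and have 1 RefSeq promoter with AP-1, IRF or NF-kB letters in it.
Il20rb, chr9:100486474-100486723, minus strand: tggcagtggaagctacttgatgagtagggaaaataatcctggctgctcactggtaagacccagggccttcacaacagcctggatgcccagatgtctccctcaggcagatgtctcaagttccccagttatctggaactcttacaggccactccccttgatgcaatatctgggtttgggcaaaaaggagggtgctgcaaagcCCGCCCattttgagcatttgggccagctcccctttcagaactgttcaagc
Icam1, chr9:21015690-21015939, plus strand: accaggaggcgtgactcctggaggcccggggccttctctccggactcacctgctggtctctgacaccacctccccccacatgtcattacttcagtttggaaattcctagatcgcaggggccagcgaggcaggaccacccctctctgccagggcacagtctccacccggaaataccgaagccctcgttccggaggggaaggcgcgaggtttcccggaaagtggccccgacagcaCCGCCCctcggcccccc
Fezf2, chr14:12345866-12346115, minus strand: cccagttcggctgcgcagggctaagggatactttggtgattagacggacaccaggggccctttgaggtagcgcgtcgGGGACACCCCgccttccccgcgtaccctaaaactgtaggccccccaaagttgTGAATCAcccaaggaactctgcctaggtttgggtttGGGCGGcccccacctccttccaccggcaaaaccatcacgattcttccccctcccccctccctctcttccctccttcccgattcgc
Irf2, chr8:46739495-46739744, plus strand: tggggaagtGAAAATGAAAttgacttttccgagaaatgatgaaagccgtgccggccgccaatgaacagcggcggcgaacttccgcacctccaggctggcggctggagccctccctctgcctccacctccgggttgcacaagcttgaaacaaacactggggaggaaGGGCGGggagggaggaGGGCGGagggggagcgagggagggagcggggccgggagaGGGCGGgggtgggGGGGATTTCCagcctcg
Pdcd1lg2, chr19:29410669-29410918, plus strand: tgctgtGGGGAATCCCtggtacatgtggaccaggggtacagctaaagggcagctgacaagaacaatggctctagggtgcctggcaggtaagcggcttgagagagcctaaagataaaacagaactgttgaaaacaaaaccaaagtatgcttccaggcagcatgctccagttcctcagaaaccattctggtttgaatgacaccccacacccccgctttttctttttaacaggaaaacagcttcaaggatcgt
Tnfrsf8, chr4:145315165-145315414, minus strand: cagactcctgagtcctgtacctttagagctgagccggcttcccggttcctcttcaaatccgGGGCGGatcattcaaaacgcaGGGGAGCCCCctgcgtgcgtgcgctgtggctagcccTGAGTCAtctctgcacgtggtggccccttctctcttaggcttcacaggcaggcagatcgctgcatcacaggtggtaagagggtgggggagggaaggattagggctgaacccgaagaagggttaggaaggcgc

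Irf2 held an IRF match from 241 to 232 bases before its start and an NF-kB match from 17 to 8 bases before it. Fezf2 and Tnfrsf8 each held AP-1 and NF-kB matches, at 121 to 115 and 173 to 164 bases before the start of Fezf2 and at 132 to 126 and 168 to 159 before that of Tnfrsf8. No marked match overlapped another in these 6 windows. AP-1 letters stood in 6.24% of the 561 promoters of member genes and in 6.75% of all 32851 promoters. NF-kB letters stood in 5.53% against 3.90%, IRF letters in 2.14% against 2.98%, and the GC box in 47.1% against 32.7%. These matches describe the promoter windows; the member regions themselves lie elsewhere and their sequence was not read here.

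Accessibility at the members was low in both mTEC-IV libraries without being absent. Their median level was 3.21 and 4.06 scaled tags in mTEC-IV, against 20.8 and 20.8 in mTEC-III, 25.1 and 23.5 in mTEC-I and 23.3 and 24.3 in mTEC-II. At the other 4294 distal peaks that reached the level threshold, the median of the population means was 18.9 in mTEC-IV, 22.7 in mTEC-III, 22.8 in mTEC-II and 20.2 in mTEC-I. Behind the mTEC-IV medians stood 7 and 12 read ends per member. In single mTEC-IV libraries 12 and 6 members had no tag, and no member was at 0 in both. The median ratio of mTEC-IV to the lowest other population was 0.211, with a range of 0.0261 to 0.333; 284 members lay at 0.2 or less and 55 at 0.1 or less. The mTEC-IV libraries lay below all 6 others at 629 members, a count that follows from the rule, and at 1011 (23.5%) of the other distal peaks at the level threshold. In the same contrast limma (adjusted p under 0.05) called 19.7% of all tested peaks lower in mTEC-IV, 15.6% higher and 35.3% either way, and of the other distal peaks at the level threshold 23%, 4.56% and 27.6%.

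**Figure D1:**
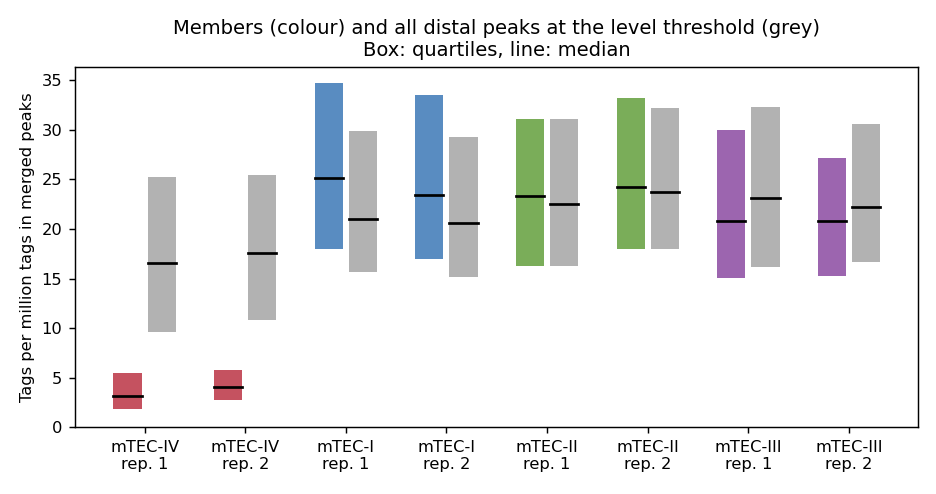
Level of the 631 members (colour) and of all 4925 distal peaks at the level threshold (grey) in each library, in scaled tags; boxes span the quartiles and lines mark medians. The coloured boxes are low in both mTEC-IV libraries, with medians of 3.21 and 4.06. In the other 6 libraries the medians lie between 20.8 and 25.1, and the boxes span 15 to 34.7.

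The authors' peak calls, made in each library alone, gave a second reading. Members overlapped a called peak 13 and 23 times in the mTEC-IV lists, against 195 and 419 in mTEC-III, 621 and 611 in mTEC-I and 458 and 578 in mTEC-II. In mTEC-IV these were 2.06% and 3.65%, against 64.5% and 71.7% of all distal peaks at the level threshold. In mTEC-III they were 30.9% and 66.4%, near the 34.5% and 69.5% of all such peaks. Shares were also near in mTEC-I (98.4% and 96.8% against 96% and 94.3%) and mTEC-II (72.6% and 91.6% against 68.2% and 88.6%). Neither mTEC-IV list held 603 of the members (95.6%), whereas neither held 14% of the other distal peaks at the level threshold. The mTEC-IV lists were not short, with 30017 and 38108 peaks, against 10525 and 19507 in mTEC-III. All 6 other lists held 156 members (24.7%), near the 1111 (25.9%) of the other distal peaks at the level threshold. Of the 156 members 130 were in neither mTEC-IV list, and of the 1111 other peaks 61. These calls come from the same tags as the rule and are no independent support.

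Under the same rule fewer peaks were low in any other single population. Applied with mTEC-I as the low population the rule found 248 peaks of 4881 eligible ones, with mTEC-II 7 of 3749, and with mTEC-III 2 of 3723. A peak low only in mTEC-II or only in mTEC-III needs at least a 3-fold gap between these 2 populations. Between them limma called 0.0867% of all tested peaks, which leaves little room for such peaks. The counts of 7 and 2 are therefore no measure of how singular mTEC-IV is. The mirror image, at least 12 scaled tags in mTEC-IV with every other population at least 3-fold lower, held 2006 distal peaks. At those the median level was 17.2 in mTEC-IV, 2.78 in mTEC-III, 1.30 in mTEC-II and 0.477 in mTEC-I. The members kept a median of 3.86 in mTEC-IV. These low levels are bounded by the rules, which differ. The member rule set mTEC-IV against the lowest of the open populations, and the mirror rule set every other population against mTEC-IV. Nothing is therefore read from the gap between the low levels of the sets.

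Members were described by position, with no test. The median distance to the TSS was 23041 bp for members and 13822 bp for the other distal peaks at the level threshold, and 25% against 40.5% lay within 10000 bp. The mirror set, open in mTEC-IV only, was alike, at a median of 22590 bp with 26.4% within 10000 bp and 54.5% in introns. Introns held 296 members (46.9% against 39%) and intergenic DNA 301 (47.7% against 51.2%). Exons held 9 members, 3′ UTRs 11, and transcription termination sites 13. Another member lay within 10000 bp of 30 members (4.75%). Members were found on every autosome, between 9.21% of eligible peaks on chromosome 7 and 16.4% on chromosome 15, and on the X chromosome at 3 of 38. Median width was 236 bp against 212 bp.

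To see how far the libraries repeat each other, the rule was applied to the 4 libraries of 1 replicate number and the level read in the other 4. Both replicate numbers enter the choice of the members, so this describes repeatability and is no independent support for them. Replicate 1 chose 611 peaks, and 354 of them (57.9%) were at least 3-fold below the lowest other population in replicate 2, against 10.7% of all 4361 distal peaks that reached the level in replicate 1. Replicate 2 chose 595, and 389 (65.4%) held in replicate 1, against 11.9% of 4657. Below the lowest other population, with no fold asked, were 98% and 96.5% of the chosen peaks, against 45% and 46.4% of their base. The median ratio was 0.292 in replicate 2, against 0.189 in the libraries that chose the peaks, and 0.246 in replicate 1, against 0.211. Under the authors' scaling to total tags the share held in replicate 1 was 36.5%, against 5.36% of its base.

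**Figure D2:**
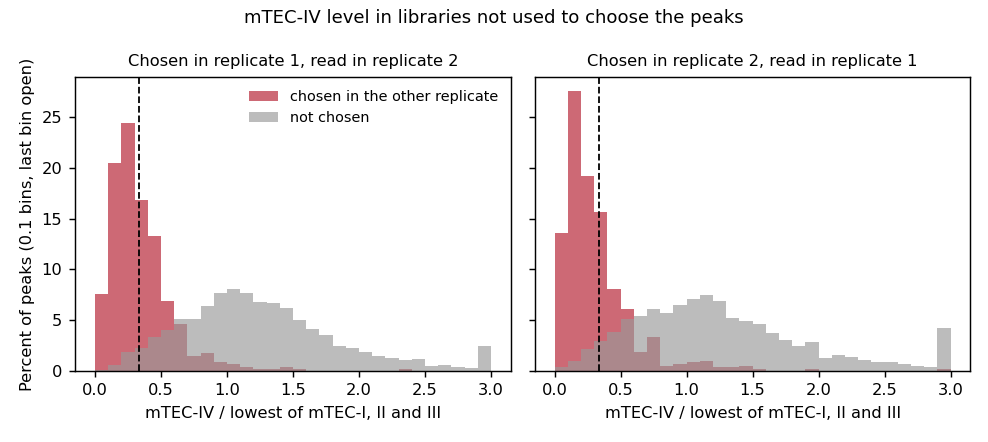
Ratio of mTEC-IV to the lowest of the other 3 populations, read in the replicate that was not used to choose the peaks; red bars are peaks chosen in the other replicate, grey bars those not chosen, and the dashed line is the fold threshold. Chosen peaks pile up at low ratios, with medians of 0.292 and 0.246, while the peaks not chosen centre near 1.

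Among the genes of the Aire stage, 3 of the 4 with a distal peak at the level threshold had a member, against 587 of 3687 such genes over all (15.9%); by peaks, 12.8% of all eligible ones were members. The counts per list that follow are descriptions and were not tested. Fezf2, a zinc finger factor that drives tissue antigen expression in mTEC alongside Aire, had its member at chr14:13216852-13217132 in an intron of Cadps, 38613 bp upstream. It held 14.2 and 7.45 scaled tags in mTEC-IV, against 50.8 and 39.6 in mTEC-III, 44.3 and 35.4 in mTEC-I and 46.6 and 48 in mTEC-II. Pdcd1lg2, which encodes the checkpoint ligand PD-L2, had 2 members; the stronger, 7175 bp inside the gene at chr19:29492469-29492700, held 8.73 and 5.42 in mTEC-IV, 32.3 and 23.6 in mTEC-III, 44.6 and 32.1 in mTEC-I and 28.7 and 38.5 in mTEC-II. Its second, 4667 bp upstream, held 4.14 and 6.104 in mTEC-IV, 21.9 and 25.7 in mTEC-III, 25.4 and 20.9 in mTEC-I and 30.3 and 30.6 in mTEC-II. Both Pdcd1lg2 members and that of Fezf2 were lower in each mTEC-IV library than in any other library. Tnfrsf11a encodes RANK, the receptor that starts mTEC maturation, and its member at chr1:107671950-107672165 was among the weaker ones, with 0 and 3.39 in mTEC-IV, 9.24 and 15.3 in mTEC-III, 13.3 and 14.1 in mTEC-I and 20.2 and 14.2 in mTEC-II.

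Of 15 NF-kB genes with an eligible distal peak 4 had a member (26.7%), but by peaks the share was 12.5%, near the 12.8% over all genes. Of 9 TNF superfamily genes 3 had a member (33.3%, and 25% of their peaks), with Tnfrsf11a in both lists. Traf2, an adaptor that carries TNF receptor signals to NF-kB, lay 2733 bp from one of the strongest members, at chr2:25405038-25405348, with 20.2 and 16.3 scaled tags in mTEC-IV, against 58.9 and 52.1 in mTEC-III, 61.2 and 50.5 in mTEC-I and 76.1 and 77.5 in mTEC-II. Tnfrsf8, the receptor CD30, had 10.6 and 19.7 in mTEC-IV, 61.2 and 54.9 in mTEC-III, 58.2 and 65.3 in mTEC-I and 69.1 and 55.9 in mTEC-II at its member 4361 bp upstream (chr4:144909309-144909513). These were high even in mTEC-IV by the measure of other members, and their ratios of 0.329 and 0.260 come from levels over 50 elsewhere. Nfkbiz, an atypical IkB protein that works in the nucleus, had 1.38 and 5.76 in mTEC-IV, 33.5 and 23.6 in mTEC-III, 52.02 and 50.2 in mTEC-I and 32.6 and 30.1 in mTEC-II at chr16:55770384-55770606. Nfkb1 encodes p105, the precursor of p50, and its member in an intron 62627 bp into the gene held 2.76 and 4.06 in mTEC-IV, 12.7 and 12.5 in mTEC-III, 18.3 and 30.3 in mTEC-I and 21.8 and 20.6 in mTEC-II. Edar, the ectodysplasin receptor of skin appendages, had 4.59 and 4.06 in mTEC-IV, 23.1 and 23.6 in mTEC-III, 30.4 and 41.1 in mTEC-I and 38.1 and 27.4 in mTEC-II.

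The MHC class II list had a single member gene among 9 with an eligible peak (11.1%). Ciita encodes the master coactivator of MHC class II genes, and its member at chr16:10465308-10465658, 14682 bp upstream in intergenic DNA, held 14.2 and 13.6 scaled tags in mTEC-IV, against 56.6 and 66.03 in mTEC-III, 78.9 and 53.4 in mTEC-I and 73.02 and 81.2 in mTEC-II. The mTEC-II sort is MHCII high and the mTEC-I sort MHCII low, and the member was nearly as open in mTEC-I as in mTEC-II. Peaks near the 14 MHC class II genes summed to 985 and 902 scaled tags in mTEC-IV and to between 1161 and 1680 elsewhere. Interferon regulatory factors supplied all 3 member genes of the interferon list, out of 8 (37.5%). Irf2, in its own intron at chr8:47866528-47866766, held 5.05 and 5.08 scaled tags in mTEC-IV, against 40.4 and 33.4 in mTEC-III, 22.8 and 23.1 in mTEC-I and 25.6 and 31.6 in mTEC-II. The member assigned to Irf1 lies in an intron of a predicted gene, 26486 bp downstream of its TSS, and held 4.59 and 8.14 in mTEC-IV, 32.3 and 25.7 in mTEC-III, 39.01 and 32.8 in mTEC-I and 20.2 and 23.7 in mTEC-II. Irf8, which directs myeloid and antigen-presenting programs, had 2 members upstream, the stronger with 5.51 and 4.06 in mTEC-IV, 27.7 and 25.7 in mTEC-III, 15.7 and 15.2 in mTEC-I and 32.6 and 33.2 in mTEC-II.

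**Figure D3:**
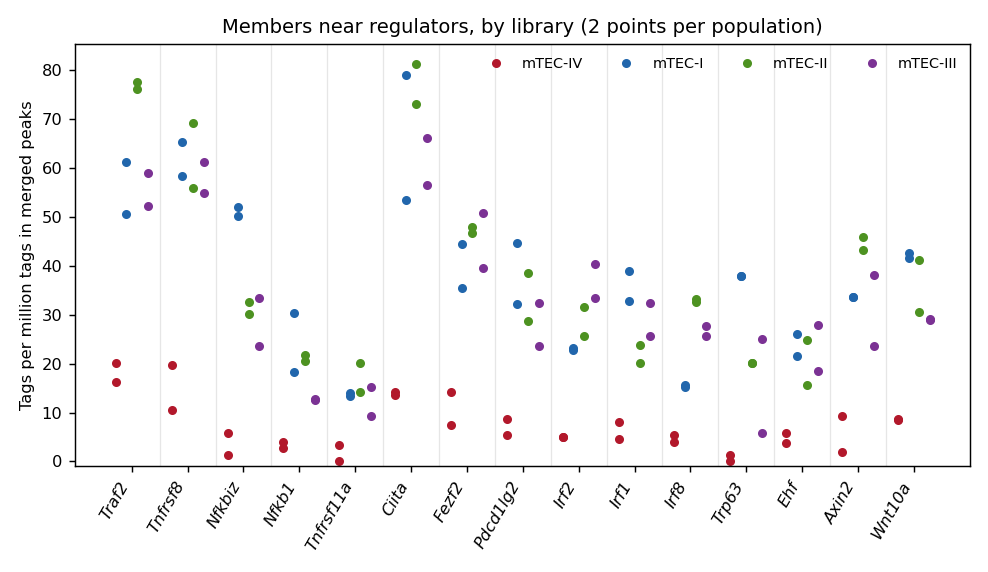
Level in each library, in scaled tags, at the strongest member of 15 regulator genes; 2 points per population, with mTEC-IV leftmost in each gene. At each of the 15 both mTEC-IV points lie below all 6 others, with the smallest gap at Trp63, where mTEC-IV had 1.38 and 0 and the first mTEC-III library 5.77.

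Among epithelial regulators, Trp63 encodes p63, the factor that maintains stratified and thymic epithelium, and its intronic member at chr16:25746979-25747217, 54904 bp upstream of the nearest TSS, held 1.38 and 0 scaled tags in mTEC-IV, against 5.77 and 25.02 in mTEC-III, 37.8 and 37.9 in mTEC-I and 20.2 and 20.05 in mTEC-II. It was also uneven among the other populations, being highest in mTEC-I and at 5.77 in the first mTEC-III library. Ehf, an epithelial ETS factor, had 3.68 and 5.76 in mTEC-IV, 18.5 and 27.8 in mTEC-III, 21.6 and 25.98 in mTEC-I and 15.5 and 24.8 in mTEC-II at chr2:103079258-103079527. Isl1, a LIM homeobox factor, had 5.51 and 3.73 in mTEC-IV, 10.4 and 20.2 in mTEC-III, 27.2 and 20.9 in mTEC-I and 16.3 and 16.9 in mTEC-II. Of 9 thymic identity genes with an eligible peak 3 had a member (33.3%), and of 6 cornified genes 2 (33.3%). Barrier regulators, with 2 of 10 genes and 14.3% of peaks, stood near the share over all genes. Tgm3, a transglutaminase of cornified layers, had 1.38 and 1.02 scaled tags in mTEC-IV and between 13.9 and 26.7 elsewhere. Batf and Maf, both bZIP factors, were the 2 of 10 AP-1 list genes with a member, and at 11.1% of peaks that list was also near the overall share. The Batf member held 2.76 and 4.41 in mTEC-IV, 21.9 and 15.99 in mTEC-III, 31.6 and 29.2 in mTEC-I and 24.1 and 35.9 in mTEC-II. Lists in which eligible peaks existed but no gene had a member were tuft cells (0 of 4 genes), keratins (0 of 4) and junctions (0 of 11), as well as thymocyte, B cell, mesenchyme and endothelial genes.

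Signalling genes added further members. Of 12 Wnt genes with an eligible peak 6 had a member (50% of genes, 30% of peaks): the ligands Wnt10a, Wnt11 and Wnt7b, the coreceptor Lrp6, the inhibitor Dkk1 and the feedback scaffold Axin2. At the Wnt10a member, chr1:74853200-74853395, levels were 8.73 and 8.47 in mTEC-IV, 28.9 and 29.2 in mTEC-III, 42.6 and 41.5 in mTEC-I and 41.2 and 30.6 in mTEC-II. The Wnt11 member, 51015 bp upstream, held 1.84 and 0 scaled tags in mTEC-IV, against 15.01 and 20.8 in mTEC-III, 26.3 and 25.98 in mTEC-I and 22.5 and 14.8 in mTEC-II. Axin2 held 9.19 and 2.03 in mTEC-IV, 38.1 and 23.6 in mTEC-III, 33.7 and 33.6 in mTEC-I and 45.8 and 43.3 in mTEC-II; the mTEC-IV libraries were far apart there, and both lay below the lowest other value, 23.6. Smad7, an inhibitor of TGF-beta signalling, had 2 members, and Id3, a BMP target, and Hey1, a Notch target, had 1 each. Insr, the insulin receptor, held 0.917 and 2.37 in mTEC-IV, 40.4 and 27.1 in mTEC-III, 10.3 and 14.1 in mTEC-I and 24.9 and 30.6 in mTEC-II.

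Cytokine receptors and cell death genes completed the lists. Il15ra, which presents interleukin 15 to lymphocytes, had 2 members that both lie in the 3′ UTR of the neighbouring Il2ra. The stronger held 2.76 and 3.05 in mTEC-IV, 13.9 and 21.5 in mTEC-III, 31.9 and 23.5 in mTEC-I and 21.8 and 27.96 in mTEC-II. Il20rb had its member in an intron of Nck1, 18017 bp upstream, with 4.14 and 5.76 in mTEC-IV, 35.8 and 15.99 in mTEC-III, 18.03 and 22.7 in mTEC-I and 25.6 and 15.8 in mTEC-II. Il6ra and Lifr, receptors of the interleukin 6 family, brought the count to 4 of 15 genes (26.7%). Bcl2l11, Bmf and Pmaip1 encode BH3-only proteins that trigger cell death, and Bcl2a1a encodes a survival protein with near-identical paralogs. Their members had mTEC-IV levels between 1.84 and 4.75.

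The strongest members, ranked by the mean of the other 3 populations, lay near genes of varied function. Zc3h12d, an RNA-binding zinc finger protein of the Regnase family, led with 19.8 and 25.1 scaled tags in mTEC-IV, against 80.8 and 75.1 in mTEC-III, 75.7 and 66.04 in mTEC-I and 83.1 and 71.7 in mTEC-II at chr10:7544434-7544724. Nr1d1, the circadian repressor Rev-Erb alpha, had an intronic member with 17.9 and 19.7 in mTEC-IV, 86.6 and 79.2 in mTEC-III, 64.4 and 59.5 in mTEC-I and 66.03 and 78.6 in mTEC-II. Both kept 17.9 or more scaled tags in mTEC-IV, above the median of 16.5 and 17.6 for all distal peaks at the level threshold in the same libraries. Ksr1, a scaffold of MAP kinase signalling, had 2 members, the stronger with 10.1 and 15.6 in mTEC-IV, 70.4 and 65.3 in mTEC-III, 63.2 and 56.3 in mTEC-I and 73.02 and 60.1 in mTEC-II. The others of the first 10 were Ciita, Traf2, Snord83b, Mreg, Rtp1, Fry and 5033403H07Rik.

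At the other end, the lowest ratios came from members with almost no mTEC-IV tags. The member nearest to Fgf20, a fibroblast growth factor, held 0.917 and 0 scaled tags in mTEC-IV, against 17.3 and 19.5 in mTEC-III, 17.1 and 18.05 in mTEC-I and 27.97 and 29.5 in mTEC-II and lies 75848 bp from it. Maf, 81891 bp away, had 0.917 and 0 in mTEC-IV, 16.2 and 16.7 in mTEC-III, 14.8 and 24.2 in mTEC-I and 16.3 and 23.7 in mTEC-II. The member nearest to Il1rl2, the interleukin 36 receptor, lies in the 3′ UTR of Il1r1 and held 0.458 and 2.71 in mTEC-IV, 33.5 and 41.01 in mTEC-III, 35.2 and 33.6 in mTEC-I and 45.1 and 29.5 in mTEC-II. Aldh8a1 had 0.917 and 0.675 in mTEC-IV, 21.9 and 23.6 in mTEC-III, 19.5 and 16.2 in mTEC-I and 35.7 and 39.6 in mTEC-II. Except for the second value at Il1rl2, these mTEC-IV levels lie below what 3 read ends give, 1.38 and 1.02 scaled tags in the 2 libraries, so the ratio of 0.0261 at Fgf20 is limited by depth. Fam219b, Gramd1b, Micall2, 4930448I06Rik, Wnt11 and Trp63 made up the rest of the 10.

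Most genes were nearest to 1 member (546 genes), 38 to 2 and 3 to 3. Slc24a4, a cation exchanger, Arhgef3, a guanine nucleotide exchange factor, and Fmn1, a formin that nucleates actin, were the genes with 3. The strongest Slc24a4 member, at chr12:103390772-103391125, held 1.38 and 3.05 in mTEC-IV, 31.2 and 35.4 in mTEC-III, 28.96 and 45.8 in mTEC-I and 40.4 and 33.2 in mTEC-II, and its other 2 had mTEC-IV levels of 3.68 to 6.78. The 3 Arhgef3 members spread from 31065 bp downstream of a TSS to 20303 bp upstream. At the edges of the rule, the members near Mief1, Odc1 and Fhad1os1 had ratios of 0.3327, 0.3326 and 0.3324, and the peaks near Rbpms, Tnfaip3 and S100a6 missed it at 0.3335, 0.3345 and 0.3347. The lowest other population was 12.02 at Dync1li1 and 12.03 at Znrf2 and Spop, inside the level, and 11.99 at Fbln1, 11.98 at Megf6 and 11.96 at Smad3, outside it.

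Differences among mTEC-I, mTEC-II and mTEC-III were fitted with limma on all 59943 peaks that passed the filter on low values, all 631 members included. The rule asked for a level in each of these populations and a gap between the lowest and mTEC-IV, which limits how far members can differ among them. Counts of members called are therefore descriptions, and nothing is read from a count below that of all peaks. In mTEC-II against mTEC-I, 17 members were higher and 35 lower (2.69% and 5.55%), against 9.53% and 10.6% of all peaks and 6.78% and 4.66% of the other distal peaks at the level threshold. In mTEC-III against mTEC-I, 10 were higher and 54 lower (1.58% and 8.56%), against 11.9% and 11.5% of all peaks and 7.85% and 4.75% of those other distal peaks. Either way, 20.1% and 23.4% of all peaks and 11.4% and 12.6% of the other distal peaks were called in these 2 comparisons. In mTEC-III against mTEC-II, limma called none. At an unadjusted limma p under 0.05 were 47 members (7.45%), against 13.8% of all peaks and 11.1% of the other distal peaks. EdgeR called 2 members (0.317%), against 0.444% and 0.512%, and DESeq2 1 (0.158%), against 0.102% and 0.233%. Limma called 0.0867% of all peaks there, 0.0784% higher and 0.00834% lower, and 0.116% of the other distal peaks, all of these higher. The members' median log2 difference was -0.08 for mTEC-II and -0.26 for mTEC-III against mTEC-I, and mTEC-I was the highest population at 301 members (47.7%), against 26.5% of the other distal peaks. Under the authors' scaling to total tags the splits against mTEC-I were 7 higher and 55 lower in mTEC-II, and 0 higher and 403 lower in mTEC-III. In mTEC-III against mTEC-II the split was 0 higher and 129 lower. Shares over all peaks under that scaling are not given, so these splits are not read as a trait of the members. Tags in merged peaks were 8.44% and 11% of all tags in mTEC-III, and between 15.3% and 19.7% in mTEC-I and mTEC-II. Whether that difference bears on the splits was not tested. Leaving out a mTEC-I library left 8 or 3 calls, against 52, in the first comparison and 6 or 5, against 64, in the second. Without mTEC-II replicate 1 or 2 the first had 13 or 31, without mTEC-III replicate 1 the second had 39, and without mTEC-III replicate 2 the third had 6.

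Single members differed in both directions. The member near Zfp445, a zinc finger protein, held 62.9 and 50.6 scaled tags in mTEC-II and 16.8 and 10.8 in mTEC-I, which do not overlap, and rose in mTEC-II (log2 difference 1.98, SE 0.32, limma adjusted p = 0.001004). Il12a encodes the p35 subunit of interleukin 12, and its member 6841 bp upstream held 57.5 and 42.2 scaled tags in mTEC-II and 15.7 and 12.3 in mTEC-I (log2 difference 1.75, SE 0.32, limma adjusted p = 0.00189). Jmjd4, which encodes a JmjC-domain hydroxylase, had a member that fell in mTEC-II, with 11.7 and 13.2 scaled tags in mTEC-II and 51.7 and 51.6 in mTEC-I (log2 difference -2.03, SE 0.30, limma adjusted p = 0.000585). These 3 kept their call without any one library. Eva1c, a membrane protein, had 9.24 and 17.4 scaled tags in mTEC-III and 54.98 and 48.4 in mTEC-I and fell in mTEC-III (log2 difference -1.99, SE 0.38, limma adjusted p = 0.002103), also without any one library. The stronger Irf8 member held 32.6 and 33.2 scaled tags in mTEC-II and 15.7 and 15.2 in mTEC-I (log2 difference 1.03, SE 0.31, limma adjusted p = 0.0293), and that call was lost without either mTEC-I or either mTEC-II library, at limma adjusted p between 0.0982 and 0.166.

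Promoter peaks of the same genes, within 1000 bp of the TSS, were not used by the rule. Of 609 such peaks tested at 416 genes, 67 (11%) were lower in mTEC-IV than the mean of the other 3 populations and 30 (4.93%) were higher. Over all 16185 promoter peaks 4.73% were lower and 6.59% higher, and at promoters of genes with no member 4.49% and 6.66%. Of the member genes, 61 had a lower and 27 a higher promoter peak, 1 of them both. Without the first or second mTEC-IV library 24 or 38 peaks were lower and 9 or 8 higher, the lone library being assumed to vary like the other populations. The higher count was 18 without mTEC-I replicate 2 and 48 or 55 without a mTEC-III library, and edgeR called 51 higher.

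Genes whose promoter was lower in mTEC-IV along with the distal member included Ciita. Its promoter peak 93 bp upstream held 2.76 and 2.03 scaled tags in mTEC-IV, against 24.2 and 7.64 in mTEC-III, 26.6 and 17.7 in mTEC-I and 25.6 and 20.05 in mTEC-II (log2 difference -2.67, SE 0.39, limma adjusted p = 0.000101). Serpina3h, a serine protease inhibitor, had 4.59 and 3.73 in mTEC-IV, 31.2 and 25.7 in mTEC-III, 58.8 and 53.4 in mTEC-I and 23.3 and 34.8 in mTEC-II (log2 difference -2.90, SE 0.24, limma adjusted p = 1.4e-06). Il20rb, whose promoter letters are given above, had 0.917 and 4.06 in mTEC-IV, 16.2 and 13.9 in mTEC-III, 32.5 and 25.98 in mTEC-I and 14.8 and 11.1 in mTEC-II (log2 difference -2.73, SE 0.39, limma adjusted p = 9.3e-05). The groups did not overlap at these 3 promoters, and each kept its call without any one library.

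Col12a1, a fibril-associated collagen, had the largest fall of the promoter peaks called. Its promoter held 0 and 6.78 in mTEC-IV, 13.9 and 9.73 in mTEC-III, 47.3 and 45.1 in mTEC-I and 16.3 and 13.2 in mTEC-II (log2 difference -3.20, SE 0.59, limma adjusted p = 0.000512); mTEC-I was far above the other populations there, and the call was lost under DESeq2. Icam1, an adhesion molecule induced by NF-kB, had 2 promoter peaks that fell; the peak 809 bp inside the gene held 5.05 and 6.44 scaled tags in mTEC-IV, against 40.4 and 25.02 in mTEC-III, 27.5 and 22.01 in mTEC-I and 34.96 and 18.99 in mTEC-II (log2 difference -2.11, SE 0.29, limma adjusted p = 6.5e-05). Its second, centred 55 bp upstream, held 8.27 and 7.79 in mTEC-IV, 17.3 and 15.3 in mTEC-III, 20.1 and 27.1 in mTEC-I and 17.1 and 18.99 in mTEC-II (log2 difference -1.16, SE 0.27, limma adjusted p = 0.00259), and both kept their call without any one library. Another Icam1 promoter peak, 486 bp upstream, was not called (log2 difference -1.41, SE 0.75, limma adjusted p = 0.158). There the first mTEC-III library was at 0, below the mTEC-IV values of 1.84 and 1.36. At the Trp63 promoter levels were low in all libraries, 0.458 and 0 in mTEC-IV, 8.08 and 4.86 in mTEC-III, 9.46 and 11.9 in mTEC-I and 0 and 8.97 in mTEC-II (log2 difference -2.75, SE 0.76, limma adjusted p = 0.00912), and the call was lost without either mTEC-IV library. Among the list genes, promoter peaks of Irf8, Wnt11, Wnt10a, Il15ra, Isl1, Id3 and Ccnd2 were lower too, with log2 differences between -2.09 and -0.57, and each lost its call without at least 1 of the mTEC-IV libraries. Icam1 and the list genes beyond Ciita, Il20rb and Trp63 were picked after their values were seen.

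Other members stood beside promoters that were not called. The Traf2 promoter peak held 88.2 and 83.7 scaled tags in mTEC-IV, against 94.7 and 88.97 in mTEC-III, 72.7 and 72.9 in mTEC-I and 76.1 and 85.98 in mTEC-II (log2 difference 0.10, SE 0.14, limma adjusted p = 0.623). Irf2 had 14.2 and 14.9 in mTEC-IV, 31.2 and 20.8 in mTEC-III, 16.3 and 11.5 in mTEC-I and 16.3 and 20.05 in mTEC-II at its promoter peak (log2 difference -0.31, SE 0.27, limma adjusted p = 0.399). At Tnfrsf11a the promoter held 39.97 and 34.9 in mTEC-IV, 32.3 and 37.5 in mTEC-III, 27.2 and 24.9 in mTEC-I and 43.5 and 34.3 in mTEC-II (log2 difference 0.21, SE 0.19, limma adjusted p = 0.436). The mTEC-IV values lay within the range of the other 6 libraries at each, and a p above the threshold does not show that the levels were equal. In simulated data for this comparison limma recovered 25.3% of 87 changes of 2-fold and 80.9% of 94 of 4-fold. The simulation changed only 200 peaks, drawn at all levels. Its shares therefore do not tell how often a change at these promoters would be missed. At Fezf2 and Pdcd1lg2 the promoter peaks were low in every library, at most 8.44 and 9.02 scaled tags, and were not called.

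Promoters that were more open in mTEC-IV lay next to members as well. Plac8, which encodes a cysteine-rich protein, had 21.1 and 19.99 scaled tags in mTEC-IV, against 3.46 and 2.78 in mTEC-III, 1.48 and 0 in mTEC-I and 0 and 1.06 in mTEC-II at its promoter (log2 difference 3.67, SE 0.60, limma adjusted p = 0.000236). Skint9, of an immunoglobulin-like family known from skin and thymus, had 28.03 and 21.3 in mTEC-IV, 4.62 and 9.03 in mTEC-III, 1.77 and 0 in mTEC-I and 0 and 3.17 in mTEC-II (log2 difference 3.38, SE 0.67, limma adjusted p = 0.000919). Ank3, which encodes the membrane scaffold ankyrin G, has 2 members and 4 promoter peaks; the peak 794 bp inside the gene held 14.7 and 11.2 in mTEC-IV, 0 and 2.08 in mTEC-III, 1.48 and 1.44 in mTEC-I and 0 and 0.524 in mTEC-II (log2 difference 3.31, SE 0.61, limma adjusted p = 0.000549). These rises kept their call without any one library. Plekhg1 rose by 3.04 on the log2 scale at 1 promoter peak and kept that call likewise. Another Plekhg1 promoter peak, 937 bp from the TSS, was called lower in mTEC-IV. It held 9.65 and 16.6 scaled tags in mTEC-IV and 19.5 to 28.7 elsewhere (log2 difference -0.84, SE 0.26, limma adjusted p = 0.0169). Gdnf, a neurotrophic factor, rose by 2.66 and lost its call without the second mTEC-IV library. Batf and Tnfrsf8 each rose by 1.5 on the log2 scale at 1 promoter peak, and those calls were lost without either mTEC-IV library.

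**Figure D4:**
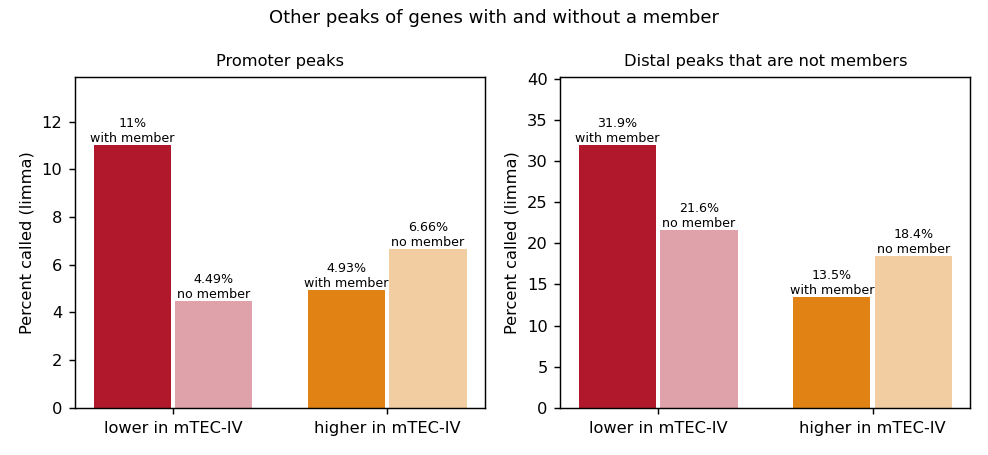
Percent of promoter peaks (left) and of distal peaks that are not members (right) called lower or higher in mTEC-IV than the mean of the other 3 populations by limma, for genes with a member (solid) and with none (pale). Genes with a member have more lower calls, 11% against 4.49% at promoters and 31.9% against 21.6% at distal peaks, while higher calls are 4.93% against 6.66% and 13.5% against 18.4%.

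Other distal peaks of the same genes, members excluded, gave 2320 tested peaks at 511 genes. Of these 740 (31.9%) were lower in mTEC-IV and 314 (13.5%) higher, against 22.4% and 18% of all 30503 distal peaks that are not members. Restricted to peaks at the level threshold, 33% of those of genes with a member were lower and 5.01% higher, against 22.2% and 4.53% of those of genes with no member, so the lower share of higher calls was not seen there. A lower distal peak was found at 327 genes, a higher one at 193, and both at 140. Without the first or second mTEC-IV library the lower count was 319 or 411 and the higher 176 or 197.

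The distal peaks nearest to a member stood apart from those farther off. Distal peaks within 5 kb of a member, 318 in number, had a median log2 difference of -1.04 between mTEC-IV and the mean of the others, and 46.5% were called lower. From 5 to 20 kb the median was -0.39 with 28.5% lower, from 20 to 50 kb -0.27 with 25.1%, and beyond 1000 kb -0.11 with 21.9%. Among peaks at the level threshold the nearest bin held 60 peaks with a median of -0.44, and 40% were lower, against 22.3% to 27.8% in the bins farther off, which follow no steady order. Promoter peaks showed 7.25% lower within 5 kb, 10.9% from 5 to 20 kb and 4.51% beyond 1000 kb, so the nearest promoter bin was not the highest. Members themselves are left out of every bin, and neighbouring peaks share libraries and local sequence.

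**Figure D5:**
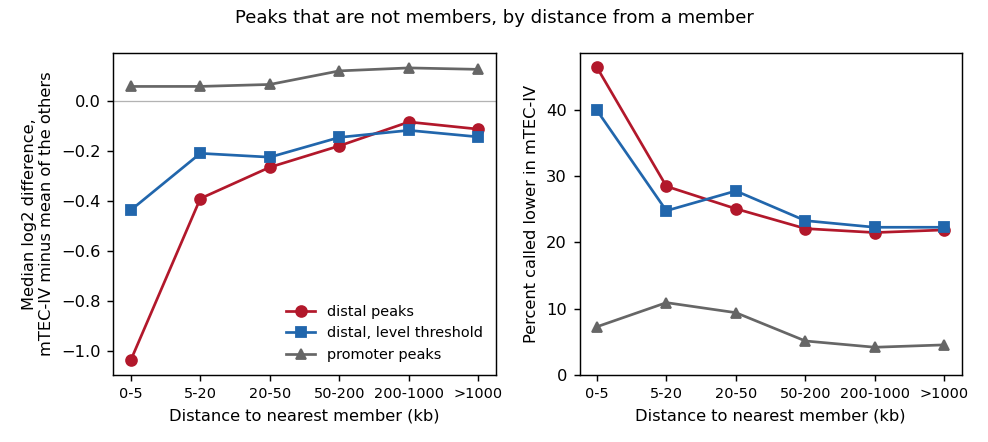
Median log2 difference between mTEC-IV and the mean of the other populations (left) and percent called lower by limma (right) against distance to the nearest member in kb, for distal peaks (circles), distal peaks at the level threshold (squares) and promoter peaks (triangles). Distal peaks within 5 kb of a member have the lowest median, -1.04, and the highest share called lower, 46.5%, and their other bins lie between 21.5% and 28.5%; promoter peaks have no such extreme in the nearest bin.

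Some genes had both a member and a distal peak that rose in mTEC-IV. Next to Irf2, whose member was lower in mTEC-IV, a second distal peak at chr8:47904774-47904925, 79750 bp from the TSS, held 15.6 and 29.8 scaled tags in mTEC-IV, against 1.149 and 0 in mTEC-III, 0 and 0 in mTEC-I and 0 and 1.06 in mTEC-II (log2 difference 4.61, SE 0.61, limma adjusted p = 5.6e-05). Itga3, an integrin subunit that binds laminin, had a member 20368 bp upstream with 6.43 and 3.39 in mTEC-IV, 17.3 and 20.8 in mTEC-III, 25.7 and 24.5 in mTEC-I and 20.2 and 15.8 in mTEC-II, and an opened peak 12799 bp upstream with 19.8 and 18.3 in mTEC-IV, 0 and 4.17 in mTEC-III, 0 and 0.721 in mTEC-I and 0 and 0 in mTEC-II (log2 difference 4.24, SE 0.68, limma adjusted p = 0.000205). Nkd2, an inhibitor of Wnt signalling, had 29.4 and 28.1 in mTEC-IV, 2.31 and 2.08 in mTEC-III, 0.294 and 0.3604 in mTEC-I and 0 and 3.69 in mTEC-II at its opened peak (log2 difference 4.14, SE 0.64, limma adjusted p = 0.000154). Stat4, a transducer of interleukin 12 signals, had 19.3 and 27.1 in mTEC-IV, 0 and 0.691 in mTEC-III, 0.593 and 1.802 in mTEC-I and 0.779 and 1.06 in mTEC-II (log2 difference 4.10, SE 0.56, limma adjusted p = 7.2e-05). At each of these opened peaks both mTEC-IV libraries lay above all 6 others, and the rises kept their call without any one library. Nebl, Ptpn14, Stard5 and Fbrsl1 completed the 8 with the largest rise, at 4.12 to 4.51 on the log2 scale.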

How the data were processed

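ATAC-seq libraries of 4 sorted mTEC populations, 2 each, were grouped by sample title. The submitters' processing notes name bcl2fastq 2.15.0.4, Picard 1.108, HOMER without a version, and mm9. No source used here states the aligner, how duplicates were handled, or whether read ends were shifted for transposase binding. Peaks of each library came from HOMER findPeaks, per the file headers, at fragment length 300 bp, false discovery rate 0.001 and 4-fold over the local 10000 bp. The authors' merged table gives each of 74090 peaks a deposited signal in tags per 10000000 total tags, with its nearest TSS and annotation. The deposited peak lists hold the authors' normalized signal per peak.

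In every library 100% of the merged signal values were whole multiples of 1 read end within the rounding of the 2 deposited decimals (at most 0.0104 read ends), so read ends were recovered. Levels are tags scaled to 1000000 tags in merged peaks. The planned count test was replaced, because the signal is scaled, by limma 3.58.1 (R 4.3.3, trend) on log2(TMM-scaled value + 1), a scale that understates the change of low peaks. It was fitted to the 59943 peaks with 10 or more tags per 10000000 in 2 or more of the 8 libraries, with 1 coefficient per population, and p-values were adjusted by Benjamini-Hochberg over all of them (threshold 0.05). Alternatives were edgeR 4.0.16 (quasi-likelihood) and DESeq2 1.42.0 on recovered read ends, other scalings and pseudocounts, no filter, a replicate block and each library left out. On simulated data for mTEC-IV against the others (49954 peaks), limma recovered 25.3% of changes of 2-fold and 80.9% of 4-fold, with 0 false calls. Only 200 peaks were changed there, at 1 fixed spread, unlike the deposited data, so these shares do not carry over to them.

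The members, lists and rules were chosen with earlier results of these data known. Named by rule were the 10 strongest members, the 10 with the lowest ratio, genes with 3 members, up to 4 members per gene list, peaks at the edges of the rule, and the largest called changes of each test. Gene names are the authors' nearest genes. Of 330 members with a transcript accession in the annotation, 327 were matched to a symbol through RefSeq. Promoter sequences are GRCm38.p6, and no coordinate was converted. A result that is withheld is not reported here.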

Additional observations from a re-analysis of the deposited data

How the results depend on the processing

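The number of members depended on the rule. It was 248 with the authors' scaling to total tags, and these held 214 of the 631 members (33.9%). With mTEC-IV at least 2-fold or 4-fold below the lowest population it was 1022 and 416, and at a level of 6 or 24 it was 1543 and 144. When every library had to meet both the level and the fold it was 249. With the fold asked of every library but the level of population means it was 338. With 1 library left out it was 591 to 685, and between 85.1% and 95.7% of the members were kept. The held-out share was 36.5% for peaks chosen in replicate 2 under the authors' scaling, and 98.0% for those chosen in replicate 1 when only a level below the lowest population was asked. Member calls in mTEC-II against mTEC-I (52) numbered 128 with edgeR, 34 and 90 with pseudocounts of 0.5 and 5, and 3 to 68 with 1 library left out. In mTEC-III against mTEC-I (64) they numbered 116 with edgeR, 403 under the authors' scaling, 103 with a pseudocount of 5, and 5 to 72. In mTEC-III against mTEC-II (0) they numbered 2 with edgeR, 1 with DESeq2, 129 under the authors' scaling, 2 with a pseudocount of 5, and 0 to 6. Promoter peaks lower in mTEC-IV ranged over 24 to 69 and other distal peaks over 319 to 781 with 1 library left out; higher ones ranged over 8 to 55 and 176 to 334, and edgeR called 51 promoter peaks higher. In mTEC-II against mTEC-I edgeR called 20.3% of members, 27.9% of all peaks and 17.7% of the other distal peaks at the level threshold. In mTEC-III against mTEC-I these shares were 18.4%, 27.1% and 15.8%. The promoter peaks that edgeR called higher were 8.37%, against 11.3% of all promoter peaks. Shares over all peaks under other scalings, pseudocounts and left-out libraries are not given, so nothing about the members is read from those counts. The cause of these moves was not tested. Of the 57 single calls followed, none reversed; 9 were lost under the authors' scaling, 4 under DESeq2, 1 under edgeR and 1 without the filter. Same-numbered libraries of different populations did not deviate together (correlations of -0.011 to 0.028), so the numbers were not treated as pairs; with a replicate block the counts were 57, 64 and 0 members, 66 lower and 30 higher promoter peaks, and 748 lower and 319 higher other distal peaks, and no single call was lost. With 1 library left out, its population rests on a lone library assumed to vary like the others, and 84 of those 456 fits of single calls lost the call. Depth limits the members in mTEC-IV, where medians of 7 and 12 read ends stood behind a level, and in the shallowest mTEC-III library, where the level threshold is 10.4 read ends.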
